A study of Mus musculus with 12 samples.

Results

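The Skint genes are a mouse gene family in 1 cluster on chromosome 4, and the 8 described here are Skint1, Skint2, Skint5, Skint6, Skint7, Skint8, Skint10 and Skint11. They are the members left when Skint3, Skint4 and Skint9 are set aside, out of 11 Skint genes and 34303 gene symbols in the table. The genes described here were chosen by the measured difference between TAp63-/- and wild-type (WT) skin: the 3 set aside were the only genes of 14752 tested that passed there (0.0203%). Nearest to the threshold were Skint3 on the passing side (log2 difference 5.46, adjusted p = 0.00494, limma) and Skint8 on the other (-1.99, adjusted p = 0.0883).

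RNA was sequenced from 12 libraries of C57Bl6 mice in 4 groups. WT skin (n = 3) and TAp63-/- skin (n = 3) were dorsal skin of untreated animals aged 4 weeks. WT cutaneous squamous cell carcinoma (cSCC, n = 2) and TAp63-/- cSCC (n = 4) were tumours of animals older than 35 weeks that had received ultraviolet radiation of 2.5 kJ/m2, 3 times a week. TAp63-/- animals lack the p63 isoforms with the N-terminal transactivation domain, and the labels do not say how the allele was made. Each library is a piece of bulk tissue, and its title holds a number of its own after WT or TA. The labels do not say whether these numbers name separate animals. P-values thus measure the spread between these samples, which may be technical.

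Skint proteins are membrane proteins with immunoglobulin-like domains, related to the butyrophilins. Skint1, the best known, is made by thymic epithelium and by keratinocytes, and it is required for the development of the dendritic epidermal T cells, the γδ T cells that populate mouse epidermis. The functions of the other members are less well known, and the family takes its name from the selection and upkeep of intraepithelial T cells.

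The cluster spans 2.33 Mb of mm10. In order of position it holds Skint8 (ENSMUSG00000078599, chromosome 4, 111919392 to 111950358), Skint7 (ENSMUSG00000049214, 111972923 to 111988223) and Skint1 (ENSMUSG00000089773, 112006269 to 112029538). After Skint4, Skint3 and Skint9 follow Skint2 (ENSMUSG00000034359, 112557194 to 112647840) and Skint10 (ENSMUSG00000048766, 112711147 to 112774866). The far end holds Skint6 (ENSMUSG00000087194, 112804616 to 113286973), Skint5 (ENSMUSG00000078598, 113477891 to 113999503) and Skint11 (ENSMUSG00000057977, 114163384 to 114245028). Skint5 and Skint6 are the long genes, spanning 521.6 and 482.4 kb with up to 59 and 49 exons, against 7 or 8 exons in the other 6 members. Skint10, Skint6 and Skint5 lie on the minus strand.

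The 250 bases upstream of the RefSeq start (GRCm38.p6) were compared for all 8 genes, since several of them differed together between the groups. Over the 28 pairs the median identity was 49.1%, and Skint5 and Skint6 stood at 88.8%. Skint7 and Skint8 share a run of 51 bases at different distances from the start, 2 to 52 bases before it in Skint7 and 180 to 230 bases before it in Skint8. The table of values starts Skint8 at 111919392, inside that window. Below, capitals mark the longest run shared within each pair, which is 26 bases in Skint5 and Skint6. Each run was found in 2 of 32851 windows, those of its own pair. The windows are chr4:113999504-113999753 and chr4:113286974-113287223 (minus strand) and chr4:111972677-111972926 and chr4:111919305-111919554 (plus strand), written 5′ to 3′.
Skint5: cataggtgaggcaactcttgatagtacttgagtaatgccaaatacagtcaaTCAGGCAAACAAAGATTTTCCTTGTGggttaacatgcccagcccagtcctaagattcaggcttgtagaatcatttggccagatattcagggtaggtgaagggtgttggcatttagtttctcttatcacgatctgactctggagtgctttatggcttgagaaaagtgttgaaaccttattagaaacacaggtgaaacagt
Skint6: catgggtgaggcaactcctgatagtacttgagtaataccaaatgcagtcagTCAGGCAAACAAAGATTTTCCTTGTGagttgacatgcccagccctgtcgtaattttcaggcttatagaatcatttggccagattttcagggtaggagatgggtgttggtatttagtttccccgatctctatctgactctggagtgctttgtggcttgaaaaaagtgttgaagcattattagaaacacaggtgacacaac
Skint7: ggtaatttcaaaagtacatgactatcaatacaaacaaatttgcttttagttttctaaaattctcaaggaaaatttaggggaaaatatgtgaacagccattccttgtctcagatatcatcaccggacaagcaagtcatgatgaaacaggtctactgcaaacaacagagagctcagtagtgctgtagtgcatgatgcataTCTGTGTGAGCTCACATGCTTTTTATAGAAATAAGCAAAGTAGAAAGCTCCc
Skint8: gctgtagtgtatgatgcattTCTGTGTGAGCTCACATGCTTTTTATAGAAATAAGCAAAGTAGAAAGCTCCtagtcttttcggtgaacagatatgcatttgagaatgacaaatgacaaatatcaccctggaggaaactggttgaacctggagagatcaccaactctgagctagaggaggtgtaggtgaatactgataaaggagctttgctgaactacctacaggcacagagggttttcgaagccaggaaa

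A search of these windows on both strands found TATAAA in 5 of 8 members (Skint1, Skint2, Skint7, Skint8 and Skint11) and in 12.4% of all windows. It lay in the direction of the gene in Skint1 and on the opposite strand in the others. In Skint8 and Skint11 it was 209 and 218 bases before the start. The matches of Skint7 and Skint8 lie in the run these genes share. CCAAT was present in 2 (Skint1 and Skint10), against 33.8% of windows. The AP-1 motif TGANTCA was present in Skint11, 15 bases before the start, against 6.75%. Paired p53-family cores, CATG and CATG with 6 bases between, were in 0 of the 8, against 0.49%. These are letter matches and say nothing of binding.

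Transcripts of some members are also alike. Of the 50-base stretches in the longest coding transcript, 19.8% in Skint8 and 14.7% in Skint7 occurred in the other, as did 3.93% in Skint5 and 4.64% in Skint6. In Skint2 1.17% occurred in Skint3, and in Skint1, Skint10 and Skint11 none occurred in another Skint gene. Reads from shared stretches cannot be assigned from sequence alone, so values of Skint7 and Skint8, and less so of Skint5 and Skint6, are uncertain to that extent.

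Values are in fragments per kilobase of transcript scaled to library size (FPKM), and read depth is unknown. All 8 members passed the filter of at least 1 FPKM in at least 2 libraries. Within-group correlations of all tested genes ran from 0.916 to 0.969 in skin and from 0.864 to 0.917 in tumours, and WT cSCC replicate 2 was the tumour nearest to skin (0.79 to 0.881). By Xist and 4 Y-linked genes, each of the 6 skin libraries was male and 5 of the 6 tumours were female, the male one being TAp63-/- cSCC replicate 1. Tissue cannot be told apart from age, ultraviolet exposure and the naming series in the titles, nor from sex except in that 1 tumour. The summed FPKM of wound keratinocyte genes (Krt6a, Krt16 and others) separated the labelled tissues, at 434 to 1438 in skin and 9711 to 37798 in tumours. Each of 14 genes of differentiating keratinocytes was above 0 somewhere in each group, which does not tell tissues apart.

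In WT skin all 8 members were expressed. Skint10 had the highest level and Skint6 the lowest, and between them Skint2, Skint5, Skint7, Skint8, Skint1 and Skint11 formed a graded series in which each gene overlapped its neighbour. Medians ran from 57.1 FPKM for Skint10 through 32.1 for Skint2, 18.1 for Skint5, 14.0 for Skint7, 13.3 for Skint8, 11.6 for Skint1 and 9.39 for Skint11 to 2.03 for Skint6. Only Skint10 above Skint2 and Skint11 above Skint6 had ranges over the 3 libraries that did not overlap. Within each library, Skint2 also exceeded Skint5, Skint5 exceeded Skint7, and Skint8 exceeded Skint1. WT skin replicate 3 had the highest value for 8 of 8 members and WT skin replicate 1 the lowest for 7. The summed FPKM of 14 differentiating keratinocyte genes was also highest in replicate 3 (11772) and lowest in replicate 1 (5838), beside 8871 in replicate 2. Growing hair follicle genes (16) lay the other way, with a summed FPKM of 5439, 2935 and 491 in WT skin replicates 1, 2 and 3. The part of neither list in the Skint values was tested.

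**Figure D1:**
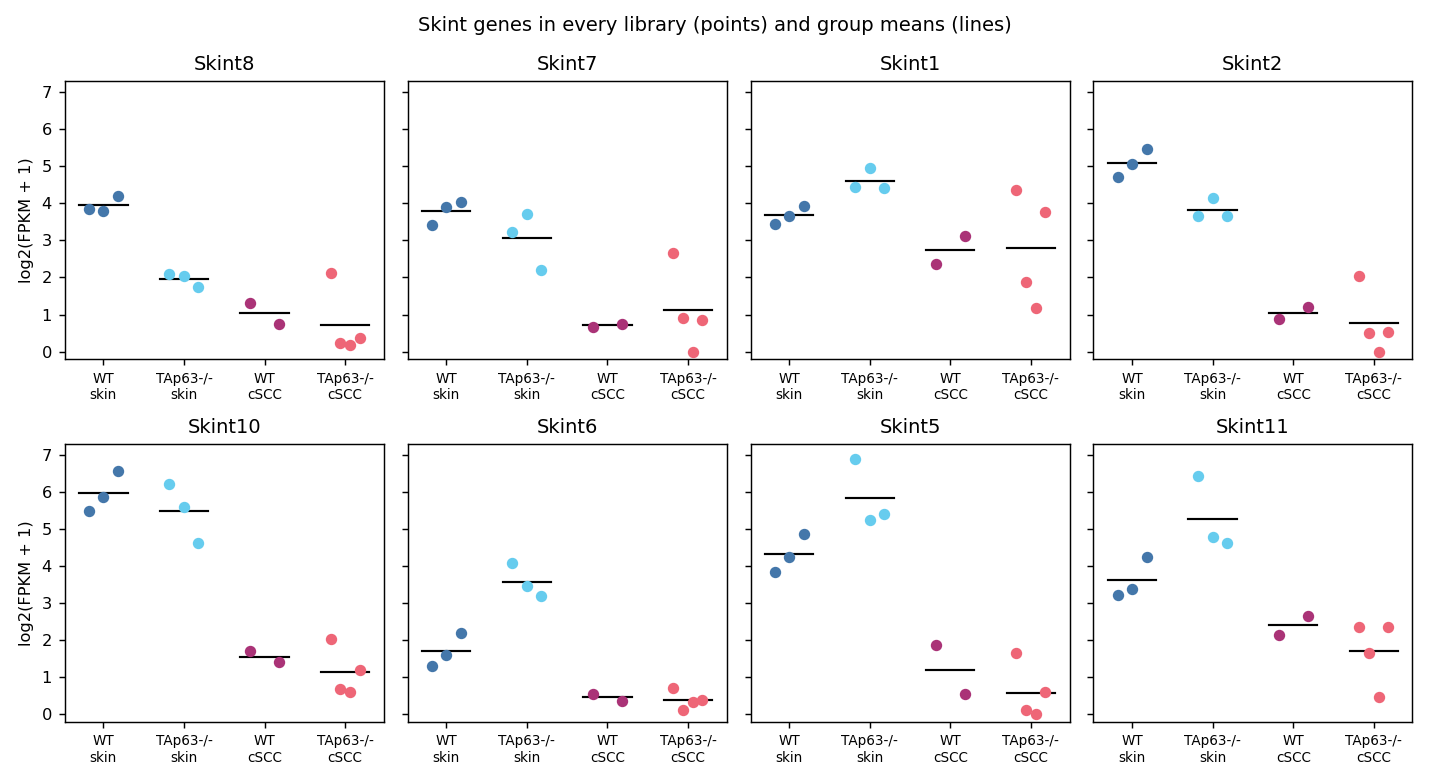
Each panel shows 1 Skint gene as log2(FPKM + 1), with a point per library and a line at the mean of each of the 4 groups, in order along the cluster. The mean of each of the 8 is lower in tumours than in skin of the same genotype, and Skint8 and Skint2 lie lower, Skint1, Skint6, Skint5 and Skint11 higher, in TAp63-/- than in WT skin.

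The order of levels was another in TAp63-/- skin. There Skint10 (median 47.6 FPKM) was followed by Skint5 (41.3), Skint11 (26.3) and Skint1 (20.9), with Skint2 at 11.7, Skint6 at 10.1, Skint7 at 8.44 and Skint8 lowest at 3.08. Skint1 over Skint2 and Skint7 over Skint8 were the neighbours whose ranges over the 3 libraries did not overlap. Within each library, Skint5 also exceeded Skint11. Skint10 made up 35.1% to 39.9% of the summed FPKM of the 8 genes in WT skin and 17.7% to 26% in TAp63-/- skin.

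The next values compare skin of the 2 genotypes without ultraviolet exposure. WT skin stood apart at this cluster from the WT tumours too: Skint3, Skint4 and Skint9 together summed to at most 0.0676 FPKM in WT skin and to 14.2 and 21.3 in WT tumours. Whether the WT skin animals carried the same sequence of the cluster as the other animals was not tested, and a difference of that kind cannot be told apart from the genotype here. Because the skin contrast chose the genes, its values for them are given as a description without a test. The libraries of both genotypes did not overlap for 6 of 8 members, 4 higher and 2 lower in TAp63-/- skin, where 10.6% of all tested genes did not overlap (6.77% higher, 3.85% lower). The differences of mean log2(FPKM + 1) ran from -1.99 to 1.88, with a median of 0.22 beside 0.02 over all tested genes.

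Skint1, the member required for dendritic epidermal T cells, had 9.91, 11.6 and 14.3 FPKM in WT skin and 20.9, 30.1 and 20.2 in TAp63-/- skin. All TAp63-/- libraries lay above all WT libraries (log2 difference 0.93).

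Skint8 and Skint7, the members before it in the cluster, had lower means in TAp63-/- skin. Skint8 had 13.3, 12.8 and 17.5 FPKM in WT and 3.29, 3.08 and 2.34 in TAp63-/- skin (-1.99), with no overlap and the narrowest spread of the family in TAp63-/- skin (SD 0.497 FPKM, n = 3). Skint7 had 9.68, 14.0 and 15.4 FPKM in WT and 8.44, 12.1 and 3.62 in TAp63-/- skin (-0.73), and its groups overlapped.

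Skint2, the first gene beyond Skint9, had 25.1, 32.1 and 43.6 FPKM in WT and 11.7, 16.8 and 11.6 in TAp63-/- skin, lower without overlap (-1.25). Skint10 had 43.9, 57.1 and 93.3 in WT and 73.7, 47.6 and 23.8 in TAp63-/- skin. Its groups overlapped (-0.48), and both genotypes kept it as the most abundant member by median.

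The 3 genes at the far end of the cluster were all higher in TAp63-/- skin. Skint6 had 1.45, 2.03 and 3.59 FPKM in WT and 15.9, 10.1 and 8.09 in TAp63-/- skin (1.88), and Skint5, its neighbour with the like upstream sequence shown above, had 13.2, 18.1 and 28 in WT and 117, 36.7 and 41.3 in TAp63-/- skin (1.53). Skint11 had 8.39, 9.39 and 17.9 FPKM in WT and 85.3, 26.3 and 23.6 in TAp63-/- skin (1.66). None of the 3 overlapped between genotypes, and TAp63-/- skin replicate 1 was the high library for each. That library also had the highest summed FPKM in skin of differentiating keratinocyte (16625), fibroblast (8783) and muscle genes (16276). Its hair follicle sum was the lowest, at 45.5 FPKM beside 1372 and 3944 in TAp63-/- skin replicates 2 and 3. Over all 6 skin libraries the sum of the 8 Skint genes (125, 135, 157, 183, 234 and 337 FPKM) stood in exactly the opposite order to the hair follicle sum (5439, 3944, 2935, 1372, 491 and 45.5), in libraries of both genotypes. The part of hair follicle growth or of these other tissues was not tested.

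**Figure D2:**
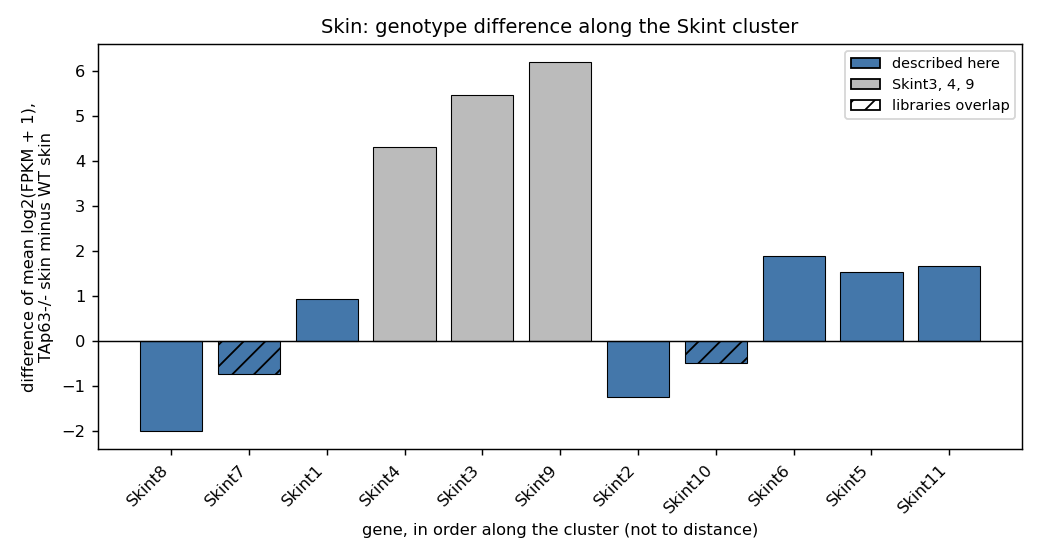
Bars give the difference of mean log2(FPKM + 1), TAp63-/- skin minus WT skin (n = 3 each), for the 11 Skint genes in order of position, without distance. The 3 grey bars (Skint4, Skint3 and Skint9) stand at 4.3 to 6.19, Skint8, Skint7, Skint2 and Skint10 are below 0, and hatched bars mark genes whose libraries overlapped.

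Set beside them, Skint9, Skint3 and Skint4 summed to 0.018 to 0.0676 FPKM in WT skin and 98.8 to 183 in TAp63-/- skin, while the 8 genes together summed to 125 to 234 and 135 to 337 FPKM. The sums of the 8 genes thus overlapped between the genotypes although single members differed in opposite directions. Genes around the cluster were read the same way. Within 1 Mb of either end, 7 genes with a single entry passed the filter and none of them lay between the Skint genes. Of these, 1 did not overlap between the skin groups: Slc5a9, a sugar transporter gene beside Skint8, with a log2 difference of -1.02. The other 6 differed by -0.33 (Bend5) to 0.03 (Cmpk1), among them Spata6 (-0.14), Stil (-0.10), Pdzk1ip1 (0.02) and 1 predicted gene.

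Tumours were then compared with skin of the same genotype. Most of the 8 members fell in tumours of both genotypes, Skint10 by the widest margin in WT and Skint5 in TAp63-/- animals. Skint1 did not pass in either, although under 4 of 14 alternatives it passed in TAp63-/- animals. In WT tumours 6 of 8 members fell and 0 rose, where 6.77% of all tested genes fell and 4.66% rose. In TAp63-/- tumours 7 of 8 fell and 0 rose, where 14.2% fell and 13.0% rose. Tumour libraries lay below all skin libraries of their genotype for 8 of 8 members in WT (25.5% of all tested genes) and for 6 of 8 in TAp63-/- animals (16.2%). The median log2 change of the 8 was -2.99 in WT and -3.12 in TAp63-/- animals, beside 0.04 and 0.10 over all tested genes. In bulk tissue, fewer keratinocytes of a kind and less RNA per cell cannot be told apart. Both comparisons use the skin libraries through which the genes were chosen, although in another contrast. Skint3, Skint4 and Skint9, set aside, were higher in WT tumours than in WT skin (log2 changes 3.54, 1.84 and 2.23). In TAp63-/- animals they were lower in tumours (-2.29, -2.76 and -5.18). Whether WT skin and WT tumour animals carried the same cluster sequence was not tested, and such a difference cannot be told apart from tissue.

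Skint10 had 2.24 and 1.66 FPKM in WT tumours and 3.11, 0.62, 0.515 and 1.30 in TAp63-/- tumours, each far below the 23.8 FPKM of the lowest skin library. It fell by 4.42 on the log2 scale in WT (SE 0.52, adjusted p = 0.000813) and by 4.35 in TAp63-/- animals (SE 0.43, adjusted p = 6.13e-05). The mean of 64.7 ± 25.6 FPKM in WT skin (SD, n = 3) stood against 1.95 ± 0.41 in WT tumours (n = 2), a ratio of 33.2. In TAp63-/- animals 48.4 ± 25 (n = 3) stood against 1.39 ± 1.2 (n = 4), a ratio of 34.9.

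Skint2 had 0.853 and 1.29 FPKM in WT tumours and 3.13, 0.423, 0 and 0.449 in TAp63-/- tumours. It fell by 4.04 (SE 0.49, adjusted p = 0.000942) and by 3.05 (SE 0.41, adjusted p = 0.000396), with no overlap between tumour and skin. A listed 0 in this table does not show absence.

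Skint5 had 2.65 and 0.464 FPKM in WT tumours and 2.12, 0.0766, 0 and 0.514 in TAp63-/- tumours. It fell by 3.11 in WT (SE 0.62, adjusted p = 0.0101) and by 5.26 in TAp63-/- animals (SE 0.52, adjusted p = 5.94e-05). Skint6, with 0.473 and 0.289 FPKM in WT and 0.639, 0.088, 0.265 and 0.312 in TAp63-/- tumours, was below 1 FPKM in all 6 tumours. It fell by 1.23 (SE 0.33, adjusted p = 0.0339) and by 3.19 (SE 0.27, adjusted p = 2.55e-05). Both genes started from higher skin levels in TAp63-/- animals, and tumour and skin libraries did not overlap in either genotype.

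Skint11 had 3.44 and 5.26 FPKM in WT tumours and 4.15, 2.13, 0.388 and 4.13 in TAp63-/- tumours. In TAp63-/- animals it fell by 3.56 (SE 0.54, adjusted p = 0.00081). In WT animals the change was -1.22 (95% interval -2.63 to 0.19, adjusted p = 0.242, limma), although both tumours lay below all 3 skin libraries.

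Skint7 and Skint8, the pair with shared transcript stretches, fell in both genotypes, less clearly in TAp63-/- animals. Skint7 had 0.599 and 0.668 FPKM in WT tumours and 5.36, 0.886, 0 and 0.809 in TAp63-/- tumours, and Skint8 had 1.49 and 0.682, and 3.31, 0.173, 0.141 and 0.287. In WT animals Skint7 fell by 3.08 (adjusted p = 0.0127) and Skint8 by 2.91 (adjusted p = 0.00478). In TAp63-/- animals Skint7 fell by 1.94 (adjusted p = 0.0221) and Skint8 by 1.23 (adjusted p = 0.048), and TAp63-/- cSCC replicate 1 was not below the skin libraries: its Skint7 value lay within their range and its Skint8 value just above all 3.

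Of the 8 members Skint1 had the highest median in tumours of both genotypes, which it did not have in skin. It had 4.11 and 7.67 FPKM in WT tumours and 19.6, 2.71, 1.24 and 12.7 in TAp63-/- tumours, all below the skin libraries of their own genotype. Its change was -0.94 in WT (95% interval -2.64 to 0.75, adjusted p = 0.46) and -1.81 in TAp63-/- animals (-3.22 to -0.39, adjusted p = 0.0586).

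**Figure D3:**
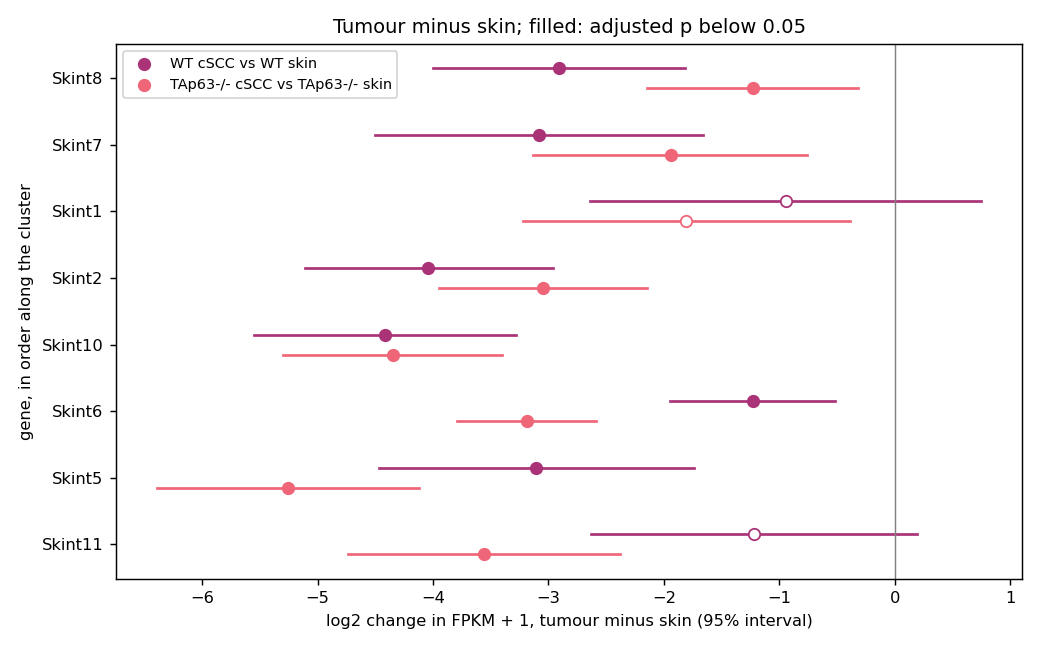
Points give the log2 change in FPKM + 1, tumour minus skin of the same genotype, for WT (2 tumours, 3 skin) and TAp63-/- animals (4 tumours, 3 skin). The 95% intervals are from limma and use a spread per gene fitted over all 12 libraries of both genotypes. Filled points have an adjusted p below 0.05; Skint1 is open in both genotypes and Skint11 in WT, and all 16 points lie below 0.

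Single libraries ended some of these calls. In WT animals Skint2, Skint8 and Skint10 passed under all 12 alternatives run. Skint5 had an adjusted p of 0.0573 without WT cSCC replicate 2, Skint7 0.0931 without WT cSCC replicate 1, and Skint6 0.128, 0.102, 0.0827 and 0.12 without WT cSCC replicate 1, WT cSCC replicate 2, WT skin replicate 2 and WT skin replicate 3. In TAp63-/- animals Skint2, Skint5, Skint6, Skint10 and Skint11 passed under all 14. Skint7 had 0.0513 without TAp63-/- cSCC replicate 4, and 0.0754 and 0.09 without TAp63-/- skin replicates 1 and 2. Skint8 had 0.0788 to 0.134 without any 1 of the other libraries, except TAp63-/- cSCC replicate 1, without which it passed at 0.00042. Skint1 passed at 0.0131 and 0.0448 without TAp63-/- cSCC replicates 1 and 4. The count of members that fell was 4 to 6 in WT and 5 to 8 in TAp63-/- animals with any 1 library left out.

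TAp63-/- cSCC replicate 1, the male tumour, had the highest value of all 6 tumours for 6 of 8 members, and TAp63-/- cSCC replicate 3 had the lowest for 7. Their summed FPKM over the 8 genes was 41.5 and 2.55, beside 7.11 and 20.5 in the other TAp63-/- tumours and 15.8 and 18 in the WT tumours. Against the TAp63-/- skin libraries, also male, replicate 1 was lower than each for 6 of 8 members, the exceptions being Skint7 and Skint8. Differentiating keratinocyte genes summed to 7492 FPKM in replicate 1 and 2426 in replicate 3, and basal keratinocyte genes to 10221 and 19368. Neither the part of sex nor that of keratinocyte makeup in these values was tested.

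Among the 8 members, the order of levels in tumours was led by Skint1 and Skint11. In WT tumours the medians were 5.89 and 4.35 FPKM, followed by Skint10 at 1.95, and Skint11 exceeded Skint10 in both libraries. In TAp63-/- tumours they were 7.70 and 3.13, followed by Skint10 at 0.959, and the range of every neighbour in the order overlapped the next. Within each tumour library of either genotype, Skint1 exceeded Skint11. Skint10, which had the highest median in skin of both genotypes, was 6.33% to 20.2% of the summed FPKM of the 8 genes in tumours. In TAp63-/- skin replicates 1 and 3, Skint5 (117 and 41.3 FPKM) was above Skint10 (73.7 and 23.8).

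**Figure D4:**
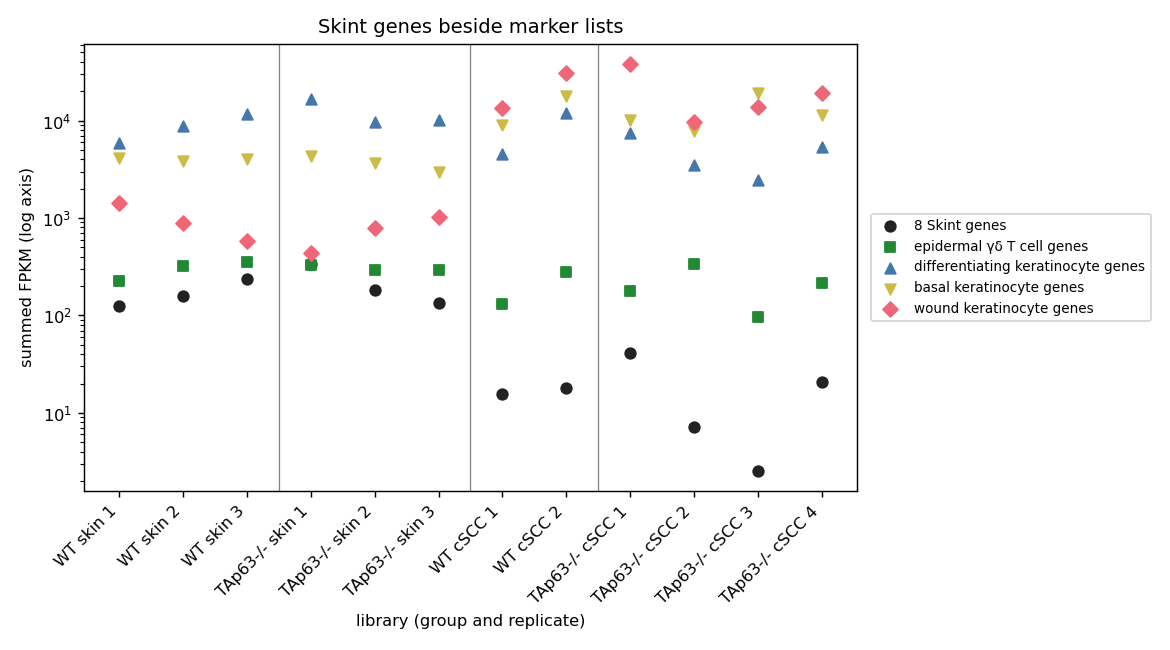
Points give the summed FPKM on a log axis, by library, of the 8 Skint genes and of 4 marker lists (epidermal γδ T cell, differentiating, basal and wound keratinocyte genes). The Skint sum is 125 to 337 in skin and 2.55 to 41.5 in tumours, while basal and wound keratinocyte sums are higher in every tumour than in any skin library.

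Keratinocyte markers were read in the same comparisons. Of 14 differentiating keratinocyte genes 2 fell in WT (Krt77 and Flg2) and 7 in TAp63-/- tumours, with medians of -0.30 and -0.95, and 0 rose. Over all tested genes 4.66% rose and 6.77% fell in WT, and 13.0% rose and 14.2% fell in TAp63-/- tumours. In WT tumours 5 of the 14 had a change above 0 and 9 below. Krt1 (1.91, adjusted p = 0.101, limma) and Flg (2.21, adjusted p = 0.108, limma) were above, neither called. Krt77, a keratin of the upper epidermis, fell by 5.94 (adjusted p = 0.00167) in WT and fell by 8.12 in TAp63-/- tumours (adjusted p = 2.48e-05), and Flg2, which encodes filaggrin-2, fell by 3.42 (adjusted p = 0.00179) and fell by 4.80 (adjusted p = 2.32e-05). Of 8 basal keratinocyte genes 1 rose and 1 fell in WT and 5 rose and 1 fell in TAp63-/- tumours. Krt14 rose by 3.06 (adjusted p = 0.00467) and 2.89 (adjusted p = 0.00079), whereas Krt15 fell by 3.64 (adjusted p = 0.00211) and fell by 4.46 (adjusted p = 6e-05). The summed FPKM of differentiating genes was 5838 to 16625 over skin and 2426 to 11969 over tumours. Muscle genes, which mark the muscle layer under the skin, summed to 9749 to 16276 FPKM over skin and 71.2 to 993 over tumours. The part of these changes in the tissue pieces in the Skint values was not tested.

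Genotypes were finally compared within tumours, a contrast that the choice of genes did not use. None of the 8 members passed, and all 8 overlapped between the genotypes, where 9.85% of all tested genes did not overlap. limma called 0 of 14752 genes here (0.0%; 419 with an unadjusted p below 0.05, lowest adjusted p = 0.126), and 0 of the 8 members had an unadjusted p below 0.05. The changes ran from -0.69 for Skint11 (95% interval -2.06 to 0.69) to 0.40 for Skint7 (-1.21 to 2.02). Skint1 was at 0.06 (-2.14 to 2.27) and Skint6 at -0.07 (-0.63 to 0.49). With 2 WT tumours these intervals leave room for changes of 2 log2 units or more in Skint1, Skint7 and Skint11. Skint9, Skint3 and Skint4, nearly absent from WT skin, had 3.41 to 4.18, 7.57 to 15.1 and 2.41 to 2.84 FPKM in WT tumours and 0.395 to 1.52, 3.46 to 16.1 and 0.759 to 3.80 in TAp63-/- tumours. Whether the tumour change of a member differed between genotypes was not tested, since that difference contains the skin contrast that chose the genes.

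Relatives of the family were also read. Of 17 butyrophilin, butyrophilin-like and B7 genes, relatives by their immunoglobulin-like domains and in part regulators of T cells, 8 passed the filter. In WT tumours 1 rose (Cd80, by 1.66, adjusted p = 0.0113) and in TAp63-/- tumours 3 rose: Cd276 by 1.27 (adjusted p = 0.01), Icosl by 1.21 (adjusted p = 0.0141) and Cd80 by 1.05 (adjusted p = 0.0195). None fell in either, where 4.66% of all tested genes rose and 6.77% fell in WT, and 13.0% rose and 14.2% fell in TAp63-/- tumours. The 17 genes together summed to 18.5 to 22.3 FPKM over the skin libraries, and Btnl6 was listed at 0 in all of them. Of the butyrophilin-like genes, Btnl9 alone reached 1 FPKM in skin (0.564 to 1.85).

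Genes of the dendritic epidermal T cells, whose selection involves Skint1, were lower in tumours in part. Of 15 tested genes 3 fell in WT tumours and 4 in TAp63-/- tumours, and 0 rose, with medians of -0.62 and -1.14. Of all tested genes 6.77% fell in WT and 14.2% in TAp63-/- tumours. Changes were above 0 for 4 of the 15 in WT and 1 in TAp63-/- tumours. Gzmb was among these in both (1.40 and 1.19), not called. Tcrg-V5, a variable segment of their T cell receptor, fell by 3.38 (adjusted p = 0.0173) in WT and fell by 2.79 in TAp63-/- tumours (adjusted p = 0.00859), and Trdv4, its delta partner, fell by 4.1 (adjusted p = 0.0144) and fell by 2.36 (adjusted p = 0.0363). Cd7 fell by 2.24 (adjusted p = 0.0373) and fell by 1.61 (adjusted p = 0.0371), and Xcl1, a chemokine, fell by 2.07 in TAp63-/- tumours (adjusted p = 0.00734). Tcrg-V5 had 7.53 to 14.0 FPKM in WT skin and 3.43 to 23.5 in TAp63-/- skin, overlapping. Between the skin genotypes none of the 15 genes was called. As limma called only 3 of 14752 genes there (0.0203%), that count says little of these genes.

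Among 19 tested genes that recruit, maintain or specify these T cells, 1 rose and 2 fell in WT tumours, and 1 rose and 6 fell in TAp63-/- tumours. The shares of all tested genes were 4.66% and 6.77% in WT, and 13.0% and 14.2% in TAp63-/- tumours. Ccl27a, the keratinocyte chemokine that attracts cells bearing Ccr10, fell by 2.81 (adjusted p = 0.0139) in WT and fell by 3.60 in TAp63-/- tumours (adjusted p = 0.000503). Il15, a survival cytokine of these cells, fell by 1.06 in TAp63-/- tumours (adjusted p = 0.0139). H60c, a stress ligand for the receptor Klrk1, rose by 1.21 in WT tumours (adjusted p = 0.0272), and Tgfb1 by 1.09 in TAp63-/- tumours (adjusted p = 0.00355). No gene of these 3 lists was called between the tumour genotypes, where limma called 0 of 14752 genes, so this says nothing particular of these lists.

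Genes outside the Skint family, predicted gene models left out, were ranked by likeness to each member over the 12 libraries. The measure was Pearson's r of log2(FPKM + 1), given as a description, and nearest below means nearest among these genes. The libraries share a tissue split, so r over all 12 is high for any gene that differs between tumour and skin. Sema3d, a secreted guidance factor, was nearest to Skint10 (r = 0.995, and 0.977 within the 6 skin and 0.87 within the 6 tumour libraries). Plcb4, a phospholipase, was nearest to Skint11 (0.965, 0.939 and 0.937), and Zfp521, a zinc finger gene, was among the nearest 3 of both Skint5 (0.977, 0.9 and 0.898) and Skint6 (0.973, 0.959 and 0.742). Myh1, a myosin of fast muscle, was nearest to Skint2 (0.965, 0.417 and 0.933) and among the nearest 3 of Skint10 (0.982, 0.846 and 0.979). Fam134b was nearest to Skint1 (0.927, 0.873 and 0.898), Hamp2 to Skint7 (0.958, 0.907 and 0.876), Apoa1bp to Skint8 (0.924, 0.898 and 0.84) and Cml3 to Skint5 (0.983, 0.961 and 0.656).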

How the data were processed

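RNA from 12 libraries was aligned and quantified by the authors with TopHat2 2.0 and Cufflinks 2.0 on mm10; the submitters' processing notes name these. No label states a unit: the deposited numbers were read as FPKM because Cufflinks gives FPKM and their range fits it. The 12 columns share 1 distribution (at least 98.9% of sorted values above 0 within 1% of the common value), so quantile normalization by the authors was inferred. Depth cannot be recovered, so values carry no counting error. Entries of the 272 symbols listed more than once were summed; each Skint gene has 1 entry, and 7 of the 8 members have the same coordinates in GENCODE M21 (Skint2 ends later there).

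Values were fitted as log2(FPKM + 1) by limma 3.58.1 (R 4.3.3, variance trend) for 14752 genes that reached 1 FPKM in 2 or more libraries. A change on this scale understates that of low genes. Tumour-skin comparisons used all 12 libraries and the tumour genotype comparison the 6 tumours. P-values are two-sided, adjusted by Benjamini-Hochberg over all tested genes, and called below 0.05. The procedure was tested on simulated data.

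The members and the 12 gene lists were chosen with earlier results of these data known. Named are all 8 members, genes among the 3 of smallest p where a list is described, and neighbours within 1 Mb. Named too are genes among the 3 most like each member, Skint genes and predicted gene models left out. Other list genes, called or not, were named after their values were seen. The values of 1 list gene are not reported here. Of 145 list entries 143 were in the table and 127 were tested. Lists of hair follicle, thymic epithelium, fat, fibroblast and leukocyte genes are in the closing section. Upstream sequences came from RefSeq (GRCm38.p6; all 8 members matched) and were aligned with Biopython 1.88. Alternatives were the pseudocount (0.1 and 5), the filter, median-of-ratios rescaling, array weights, the libraries in the fit, and leaving out each replicate.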

Additional observations from a re-analysis of the deposited data

Results flagged for a closer look

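In TAp63-/- cSCC (n = 4), replicate 1 lay far above the other 3 tumours for 3 of the 8 members. The gap to the next tumour was 0.857 of the range of the group for Skint2, 0.835 for Skint7 and 0.954 for Skint8, above Dixon's 95% critical value for 4 samples. Of 8 genes read this way chance flags about 5% at each, and the genes share their libraries. This tumour was the male one.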

How the results depend on the processing

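No paired analysis was possible because the labels give no replicate numbers shared between groups. All changes of the 8 genes between tumour and skin kept their sign under the alternatives run (96 in WT and 112 in TAp63-/- animals); 12 and 13 lost their call and 0 and 4 gained one. Outside left-out libraries, the lost calls were Skint5 (adjusted p = 0.0506) and Skint7 (0.0511) with a pseudocount of 0.1 and Skint6 with a pseudocount of 5, no filter, array weights or the 5 libraries alone (0.0576 to 0.139) in WT, and Skint8 with a pseudocount of 5, no filter or the 7 libraries alone (0.0829 to 0.107) and Skint7 with the 7 alone (0.0668) in TAp63-/- animals. Skint1 gained a call there with a pseudocount of 5 (0.0476) and with array weights (0.0436). Between tumour genotypes the sign turned for Skint1 with a pseudocount of 0.1 (-0.04), and leaving out 1 library gave -0.46 to 0.61 for Skint1, -1.28 to 0.04 for Skint5, -0.18 to 0.03 for Skint6 and -0.12 to 0.77 for Skint7; none passed. Of the 127 list genes tested, 33 were called in WT tumours and 13 to 44 with any 1 library left out (13 without WT cSCC replicate 1, 21 without WT skin replicate 3). In skin 6 to 7 members did not overlap under any alternative, and 69 of 72 differences moved by less than the spread between replicates; with a pseudocount of 5 Skint6 was at 1.14 and Skint8 at -1.30, and Skint8 at -2.28 with 0.1. The cause of these changes was not tested. Unknown depth limits what the values below 1 FPKM in tumours show.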

Other observations

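Markers of other tissues are given as values. Hair follicle genes (16 tested) summed to 491 to 5439 FPKM in WT skin, 45.5 to 3944 in TAp63-/- skin, 24.9 to 3701 in WT tumours and 16.1 to 411 in TAp63-/- tumours; 0 were called in WT and 1 fell in TAp63-/- tumours. Fat cell genes fell in 3 and 6 of 8, fibroblast genes in 3 and 6 of 8 and muscle genes in 7 and 9 of 9. Leukocyte genes fell in 1 of 8 in each genotype. Of all tested genes 6.77% fell in WT and 14.2% in TAp63-/- tumours. Of 5 tested thymic epithelium genes, read because that tissue also makes Skint1, 0 were called in WT tumours and Ccl25 rose by 1.16 in TAp63-/- tumours (adjusted p = 0.0148, limma).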
